A study of Mus musculus with 6 samples.

Results

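Histone variants are mostly encoded by genes outside the histone clusters. Most of these genes are transcribed throughout the cell cycle into polyadenylated mRNA, in contrast to the clustered core histone genes that are transcribed during DNA replication. The set described here holds the 10 mouse genes of this kind that were listed by name and found in the deposited table: Macroh2a1, Macroh2a2, H2az1, H2az2, H2ax, H2aj, H3f3a, H3f3b, H1f0 and H1f10. They are 10 of the 16381 genes in the table, and all 10 were among the 14419 genes with a value high enough for testing. Macroh2a1 was selected on its large rise with melatonin in these same samples, so its values are a description and no test was made on them. The other 9 genes were listed by what they encode, although earlier results of these data were already known.

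The RNA came from activated group 2 innate lymphoid cells (ILC2s), lymphocytes without antigen receptors that release type 2 cytokines in the airways. WT BALB/cJ mice aged 6 to 8 weeks received 0.5 µg of IL-33 intranasally on each of 3 days, and ILC2s were sorted from the lungs as live CD45+, lineage-negative, ST2+ and CD127+ cells to a purity above 95%. The sorted cells were cultured for 24 h with 250 µM melatonin or with DMSO, the vehicle, which gave 3 samples per group, 6 in all. Both groups therefore share the IL-33 challenge, the sort and the culture, and neither is a resting or untreated cell. The sources do not say whether the samples of a group were separate mice, pools or wells, so the p-values measure only the spread between these samples.

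In each nucleosome the DNA is wound around 2 copies each of H2A, H2B, H3 and H4, and a linker histone of the H1 class sits where the DNA enters and leaves. Variants take the place of the core or linker histones without DNA replication and change how the nucleosome is read. MacroH2A carries a large macrodomain behind its H2A part and is known from the inactive X chromosome and other repressed chromatin, H2A.Z marks promoters and enhancers, H2A.X is phosphorylated around DNA breaks, H3.3 is laid down at active genes and at telomeres, and H1.0 is the linker histone that accumulates in cells that have stopped dividing.

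The sequences below show where the variation behind the names lies. Macroh2a1 mRNA is spliced with either of 2 alternative exons, which encode a short stretch of the macrodomain, and only a macrodomain made with the proper exon binds ADP-ribose. In GRCm39 these exons lie on the minus strand at chr13:56237571-56237670, with 100 bases and present in 12 of 22 annotated protein-coding transcripts, and at chr13:56236065-56236155, with 91 bases and present in 7 of 22. They are 52.7% identical over the 91 aligned bases, so reads over them would tell the forms apart, but the deposited values sum both forms of the gene and give no exon level. Both are printed in the direction of the transcript.
Macroh2a1 exon of 100 bases: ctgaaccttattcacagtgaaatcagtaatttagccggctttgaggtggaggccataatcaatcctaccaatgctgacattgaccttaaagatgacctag
Macroh2a1 exon of 91 bases: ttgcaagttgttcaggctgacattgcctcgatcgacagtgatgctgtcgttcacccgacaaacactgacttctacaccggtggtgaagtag

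For 9 of the 10 genes a promoter window from 250 bases before to 50 bases after the start was found in RefSeq (GRCm38.p6), all but H2ax. The motifs searched, on both strands, were the core of the antioxidant response element (TGACNNNGC, the type of site bound by NRF2), the E-box CACGTG, the CCAAT box and the E2F site TTTGGCGC. Among all 32851 windows of the table they are present in 12.4%, 7.15%, 37.4% and 0.514%, respectively. Windows are shown for Macroh2a1 and Macroh2a2, which moved in opposite directions, and for H3f3b and H2az2, which rose by similar amounts. They lie at chr13:56135501-56135800, chr10:61783815-61784114, chr11:116024455-116024754 and chr11:6444394-6444693, all on the minus strand. Capitals mark the motif matches, where ATTGG is CCAAT on the other strand.
Macroh2a1: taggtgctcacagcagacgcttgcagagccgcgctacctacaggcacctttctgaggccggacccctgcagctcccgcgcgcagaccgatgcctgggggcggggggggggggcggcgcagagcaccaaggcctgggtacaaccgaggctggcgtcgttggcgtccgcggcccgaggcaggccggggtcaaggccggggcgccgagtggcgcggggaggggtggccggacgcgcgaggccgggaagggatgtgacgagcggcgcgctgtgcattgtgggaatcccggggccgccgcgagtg
Macroh2a2: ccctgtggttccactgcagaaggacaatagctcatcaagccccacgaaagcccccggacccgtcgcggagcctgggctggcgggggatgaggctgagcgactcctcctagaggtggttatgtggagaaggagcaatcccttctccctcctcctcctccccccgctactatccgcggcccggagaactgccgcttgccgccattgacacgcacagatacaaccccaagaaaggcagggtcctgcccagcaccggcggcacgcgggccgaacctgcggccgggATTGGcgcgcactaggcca
H3f3b: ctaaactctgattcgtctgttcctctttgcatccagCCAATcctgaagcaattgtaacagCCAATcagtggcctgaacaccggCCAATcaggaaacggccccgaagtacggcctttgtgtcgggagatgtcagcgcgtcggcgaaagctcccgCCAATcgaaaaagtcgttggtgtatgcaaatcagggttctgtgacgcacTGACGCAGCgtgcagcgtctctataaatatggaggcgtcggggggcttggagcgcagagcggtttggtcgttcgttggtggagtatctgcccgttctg
H2az2: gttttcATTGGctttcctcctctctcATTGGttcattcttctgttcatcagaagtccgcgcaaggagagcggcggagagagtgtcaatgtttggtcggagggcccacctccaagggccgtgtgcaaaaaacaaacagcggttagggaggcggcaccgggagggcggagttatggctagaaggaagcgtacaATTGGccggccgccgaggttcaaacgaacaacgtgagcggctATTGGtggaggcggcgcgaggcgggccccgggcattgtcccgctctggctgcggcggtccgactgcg

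The Macroh2a1 window holds none of these letters and is 74.3% G and C, against a median of 52.7% over all windows. That of H3f3b holds 4 CCAAT boxes and 1 match to TGACNNNGC, 48 bases before the start. H2az2 has 4 CCAAT boxes, and Macroh2a2 has 1, at 32 bases past the start. Of the windows not shown, H2az1 holds the E-box and 3 CCAAT boxes, H2aj holds 3 and H3f3a 1, while those of H1f0 and H1f10 hold none of the motifs. A match is a description of letters and not evidence that a factor binds there.

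The libraries held between 17056269 and 20511715 estimated counts. Melatonin replicates 2 and 3 had 579 and 1091 normalized counts of Xist and 0 of the Y-linked genes Ddx3y, Eif2s3y, Kdm5d and Uty, whereas melatonin replicate 1 and all 3 vehicle samples had all 4 Y-linked genes and at most 13.6 of Xist, although the study's methods name female mice only. All 10 histone variant genes are autosomal. Results were therefore also computed without melatonin replicate 1 and, as a choice made after seeing the data, with melatonin replicate 1 as the only treated sample. The first leaves melatonin samples with Xist against vehicle samples with Y-linked genes, so in it sex and treatment cannot be told apart. The other rests on 1 treated sample, assumed to vary like the vehicle samples, and is given as values. Sex is uneven in the main comparison of all 6 samples as well, since melatonin replicates 2 and 3 differ in these genes from all 3 vehicle samples. Treatment was the only term of that fit, so the part of sex in its results was not tested. The library numbers in the labels run in 1 block per group, so any step that followed them cannot be told apart from the treatment. All 12 markers of ILC2s were present in every sample and summed to 168069 to 180504 normalized counts in vehicle and 126557 to 133246 in melatonin. Of them 2 were called higher (Il1rl1, which encodes ST2, and Rora) and 7 lower (Il7r, which encodes CD127, Klrg1, Il5, Il13, Areg, Thy1 and Id2), with a median log2 fold change of -0.80. Over all genes tested, 24.5% were called higher and 24.7% lower by the limma test described in the next paragraph. Gata3 was at 17890.4 to 24588, Il1rl1 rose from a mean of 8075 to 12802, Il7r fell from 1995 to 1032 and Thy1 from 389 to 53.7. T cell markers (4 of 8 in the table) summed to 5037 to 5476 and 1709.8 to 2423, NK cell markers (3 of 4) to 111 to 125 and 0 to 4.02, myeloid markers (5 of 6) to 1149 to 1334 and 256 to 698, and epithelial and endothelial markers (5 of 6) to 1965 to 3156 and 1394 to 1546. The last group moved both ways, since Epcam rose from a mean of 667 to 1097 while the lung epithelial genes Scgb1a1 (21.5 to 1045 in vehicle), Sftpc (122 to 389) and Sftpa1 (22.5 to 93.3) were at most 1.01, 6.54 and 3.28 in melatonin, and Pecam1 fell from 1040.3 to 357. Cd79b, a B cell receptor gene, had 280.02 to 314 in vehicle and 131 to 159.8 in melatonin. Mast cell, basophil and eosinophil markers (3 of 7) and erythroid markers (3 of 4) were at most 37.2 and 56.0 in any sample. Cd4, Cd5, Cd8a, Cd8b1, Ly6g, Epx and Cdh5 were among the markers not analysed here, and Ncr1 was at 0 in melatonin replicates 1 and 2. The part of other cells in the results below was not tested. In bulk samples, fewer cells of a type and less RNA per cell cannot be told apart.

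Of the 9 members other than Macroh2a1, 3 rose with melatonin (H3f3b, H2az2 and H1f10), 2 fell (Macroh2a2 and H2ax) and 4 did not pass the test (H2az1, H2aj, H3f3a and H1f0). A gene passed when the adjusted p of limma, a linear model fitted across all genes on log2(normalized count + 1), was under 0.05. Among all 14419 genes tested, 24.5% rose and 24.7% fell, together 49.2%, so 5 of 9 is a share near the background and is not a result about histone variants as a group. The groups did not overlap in 5 of the 9, where 60.4% of all genes tested showed no overlap. The median log2 fold change of the 9 was 0.16, beside -0.0046 over all genes tested.

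**Figure D1:**
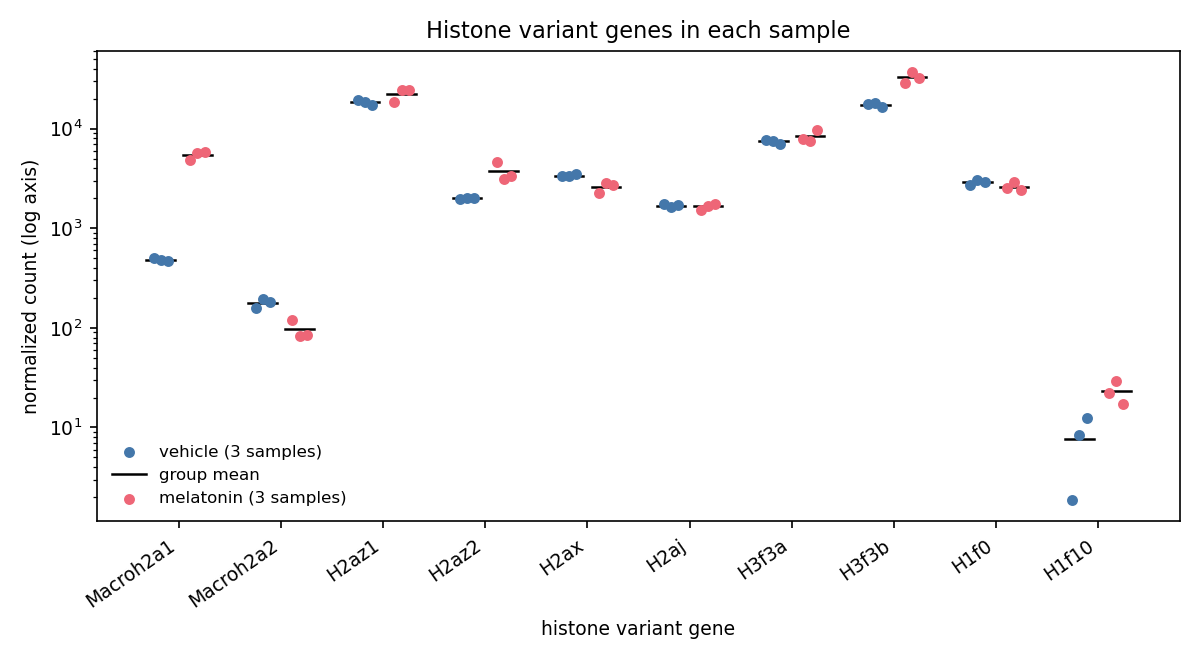
Normalized counts (log axis) of the 10 histone variant genes in the 3 vehicle and 3 melatonin samples, with points for samples and black lines for group means. Macroh2a1 lies near 484 in vehicle and 5468 in melatonin, and the 2 groups also stand apart for Macroh2a2, H2az2, H2ax, H3f3b and, at low counts, H1f10.

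Macroh2a1 (ENSMUSG00000015937, chr13:56221111-56291059, minus strand, GRCm39) encodes macroH2A1. In normalized counts, its vehicle samples were at 505, 482 and 465 and its melatonin samples at 4896, 5659 and 5849. All melatonin values lay above all vehicle values, and the lowest of them was that of replicate 1. The means were 484 ± 20.1 and 5468 ± 505 (SD, n = 3), a ratio of 11.3 and a log2 fold change of 3.49 with a standard error of 0.09. This was the 16th largest of the 14419 fitted log2 fold changes, at the percentile 99.9. With melatonin replicate 1 as the only treated sample the value was 3.34, and without that sample it was 3.57. No other gene in the table shares a stretch of at least 75 bases at 95% identity with its reference transcript, and its antisense neighbour Gm47071 is not in the table.

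Macroh2a2 (ENSMUSG00000020086, chr10:61574420-61620380, minus strand) encodes macroH2A2, the second macroH2A protein, which is 69.7% identical to macroH2A1 over 360 aligned residues. It had 158, 197 and 182 normalized counts in vehicle and 121, 83.3 and 85.3 in melatonin, so the groups did not overlap and melatonin was lower. The means were 179 ± 19.3 and 96.6 ± 21.4 (SD, n = 3), a log2 fold change of -0.90 ± 0.19 (SE, limma adjusted p = 0.0052). The smallest difference came from melatonin replicate 1, and with that sample alone the value was -0.55. Aifm2 on the opposite strand shares 825 bases with its transcripts and, since the cDNA kit is known as one that does not mark the strand, reads of the 2 genes there cannot be told apart. Aifm2 itself had 279 to 296 normalized counts in vehicle and 259 to 331 in melatonin. Pvt1, a noncoding RNA gene that shares 196 bases with Macroh2a2, had 83.1 to 101.8 in vehicle and 45.2 to 69.1 in melatonin. How reads were divided between Macroh2a2 and these genes was not tested.

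Both macroH2A genes together had 663 ± 16 normalized counts in vehicle and 5565 ± 484 in melatonin (SD, n = 3). Per kilobase of exon, Macroh2a1 supplied 51.3%, 44.8% and 45.7% of macroH2A RNA in the vehicle samples and 93.0%, 95.7% and 95.8% in the melatonin samples. In vehicle the ranges of the 2 genes overlapped on this scale, at 51.4 ± 2.13 and 57.6 ± 6.22 normalized counts per kb for Macroh2a1 and Macroh2a2, and in melatonin they were at 580 ± 53.6 and 31.1 ± 6.89. Per kilobase of the longest transcript, a scale added after seeing the data, the share was 62.7% to 68.6% in vehicle and 96.5% to 97.9% in melatonin, so which of the 2 genes was higher in vehicle depends on the length used. The share follows from the rise that chose Macroh2a1 and was not tested.

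**Figure D2:**
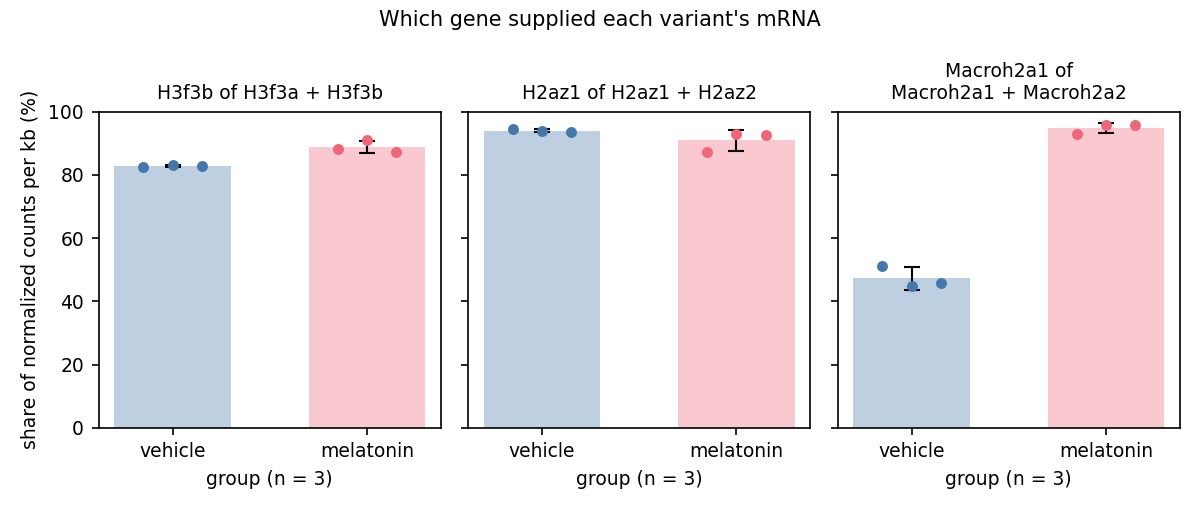
Share of length-scaled RNA, in percent, that came from H3f3b among both H3.3 genes, from H2az1 among both H2A.Z genes and from Macroh2a1 among both macroH2A genes, with bars for group means, error bars for the SD and points for the 3 samples of each group. The H3f3b share moved from 82.7% to 88.7%, the H2az1 share from 94.0% to 90.8% and the Macroh2a1 share from 47.3% to 94.8%.

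H3f3a and H3f3b encode the same protein, H3.3. Their coding sequences, translated from the annotation, give identical proteins over all 136 residues while only 76.7% of the 408 coding bases are the same, so the mRNAs can be told apart but the proteins cannot. H3f3b (ENSMUSG00000016559, chr11:115912738-115918788, minus strand) had 17848, 18135 and 16479.8 normalized counts in vehicle and 29048, 37016 and 32329 in melatonin. Every melatonin value exceeded every vehicle value, with replicate 2 the highest. The means were 17487 ± 884 and 32798 ± 4005 (SD, n = 3), a log2 fold change of 0.90 ± 0.10 (SE, limma adjusted p = 0.00026), and the gene was called in all 20 alternatives with more than 1 treated sample, between 0.80 and 1.04. With melatonin replicate 1 alone the value was 0.73.

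H3f3a (ENSMUSG00000060743, chr1:180628051-180642178, minus strand) had 7746, 7579 and 7043 normalized counts in vehicle and 7851, 7537 and 9775 in melatonin. Melatonin replicate 3 stood above all other samples, and replicate 2 lay within the vehicle range. The fitted difference was 0.16 ± 0.11 on the log2 scale (SE, limma adjusted p = 0.23), with a 95% interval from -0.08 to 0.40, which leaves room for a rise but not for one as large as the estimate for H3f3b. Without melatonin replicate 3 it was 0.05, and after correction for transcript length 0.06. Processed pseudogenes in the table, 5 of them, match at least 90% of the H3f3a coding sequence, of which H3f3c was the highest with 898 to 975 normalized counts in vehicle and 934 to 1237 in melatonin. Counting reads of these copies with the gene, an alternative chosen after seeing the data, gave 0.16 for H3f3a and 0.90 for H3f3b, as for each gene alone.

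The summed H3.3 mRNA was 25594, 25714 and 23523 normalized counts in vehicle and 36899, 44553 and 42105 in melatonin. The groups did not overlap and differed by 0.72 on the log2 scale (two-sided exact permutation test, p = 0.1, the smallest that 3 samples against 3 can give). On the length-scaled values, H3f3b made up 82.7 ± 0.271% of H3.3 RNA in vehicle and 88.7 ± 1.97% in melatonin (SD, n = 3, two-sided exact permutation test, p = 0.1). The difference of 6.08 percentage points lay between 4.998 and 6.92 when any 1 sample was left out.

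H2az1 and H2az2 encode the H2A.Z.1 and H2A.Z.2 proteins, which differ at 3 of 128 aligned residues. H2az2 (ENSMUSG00000041126, chr11:6371231-6394481, minus strand) had 1955, 2017 and 2013 normalized counts in vehicle, a spread of 34.6 (SD), and 4673, 3163 and 3327 in melatonin, a spread of 828. All melatonin values were higher than all vehicle values, and replicate 1 was far above replicates 2 and 3. The log2 fold change was 0.88 ± 0.14 (SE, limma adjusted p = 0.001). Without melatonin replicate 1 it was 0.70, where the gene was still called, and with that sample alone the value was 1.23.

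H2az1 (ENSMUSG00000037894, chr3:137570072-137572690, plus strand) was the member with the highest level per kilobase. It had 19529.7, 18656 and 17169.5 normalized counts in vehicle and 18694, 24339 and 24383 in melatonin. Melatonin replicates 2 and 3 were above every vehicle sample, whereas replicate 1 lay within the vehicle range, the reverse of what was seen for H2az2. The log2 fold change was 0.28 ± 0.12 (SE) and did not pass the test (limma adjusted p = 0.077), with a 95% interval for the single gene of 0.01 to 0.54. It passed without melatonin replicate 1 (0.40, limma adjusted p = 0.0017) and under 4 other alternatives, and the value was 0.02 with that sample alone. The comparison without melatonin replicate 1 is the one in which sex and treatment coincide in all samples.

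Part of the H2az1 signal is shared with other genes. A stretch of 682 bases of Tmcc1 transcripts in the annotation matches H2az1 at 95% identity or more and covers all of its coding sequence. Tmcc1 had 13323, 12865 and 12611 normalized counts in vehicle and 13681, 15983 and 16156 in melatonin, with the same 2 samples highest, and how the authors' algorithm divided reads between the genes was not tested. The pseudogene Gm8203 also covers the whole coding sequence and had 1455 to 1869 and 1917 to 2160.0 normalized counts. With both added to H2az1 the log2 fold change was 0.26 (limma adjusted p = 0.062), close to that of the gene alone. H2az2 has no such match.

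Summed H2A.Z mRNA was 21485, 20673 and 19183 normalized counts in vehicle and 23366, 27502 and 27711 in melatonin, without overlap, a difference of 0.35 on the log2 scale (two-sided exact permutation test, p = 0.1). It was 0.19 with melatonin replicate 1 alone and 0.60 after correction for transcript length. The H2az1 share of length-scaled H2A.Z RNA was 94.4%, 94.0% and 93.5% in vehicle and 87.1%, 92.9% and 92.5% in melatonin (two-sided exact permutation test, p = 0.1). The mean difference of -3.13 percentage points rested largely on melatonin replicate 1: it was -1.27 without that sample and -6.85 with that sample alone. With Tmcc1 and Gm8203 added to H2az1, an alternative chosen after seeing the data, the mean difference was -1.91 percentage points.

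H2ax (ENSMUSG00000049932, chr9:44245991-44247374, plus strand, a gene with 1 annotated transcript) encodes H2A.X. The gene is known to make a stem-loop transcript beside a polyadenylated one, and a cDNA kit that primes on poly(A) reads mainly the latter. It had 3365, 3321 and 3473 normalized counts in vehicle and 2250.3, 2851 and 2724 in melatonin, and each melatonin sample was below each vehicle sample. H2ax fell, with a log2 fold change of -0.38 ± 0.10 (SE, limma adjusted p = 0.011), between -0.45 and -0.28 when any 1 sample was left out. The call was lost when the fold changes were corrected for transcript length (-0.15, limma adjusted p = 0.21).

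H2aj (ENSMUSG00000060032, chr6:136784413-136787072, plus strand) encodes H2A.J, an H2A form known from senescent cells. The protein is 92.9% identical to H2A.X over 126 aligned residues. H2ax was called lower and H2aj was not called, but the difference between these genes was not tested. H2aj had 1736, 1643 and 1698 normalized counts in vehicle and 1538, 1684 and 1754 in melatonin, with melatonin samples both at the bottom and at the top of the range. The log2 fold change was -0.03 ± 0.08 (SE, limma adjusted p = 0.77), with a 95% interval from -0.22 to 0.15, and the sign turned under 4 alternatives, up to 0.11 after correction for transcript length.

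The 2 linker histone genes lay far apart in level. H1f0 (ENSMUSG00000096210, chr15:78912650-78914704, plus strand), which encodes H1.0, had 2729, 3058 and 2885 normalized counts in vehicle and 2535, 2892 and 2432 in melatonin. The ranges overlapped through melatonin replicate 2. On the log2 scale the difference was -0.14 ± 0.09 (SE, limma adjusted p = 0.21), with a 95% interval from -0.35 to 0.06. It was -0.22 without melatonin replicate 2, -0.09 without replicate 3 and -0.04 after correction for transcript length.

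H1f10 (ENSMUSG00000044927, chr6:87957403-87958619, minus strand), which encodes the divergent linker histone H1.10, had 1.87, 8.43 and 12.6 normalized counts in vehicle and 22.4, 29.5 and 17.1 in melatonin. These stand for about 2, 9 and 12 estimated counts against 24, 27 and 17, and vehicle replicate 1 was below the level of 3 counts taken as the floor. All melatonin samples were above all vehicle samples, and the log2 fold change on the scale with 1 added was 1.71 ± 0.59 (SE, limma adjusted p = 0.039). The call was lost in 8 of 19 alternatives with more than 1 treated sample, among them without vehicle replicate 1 (1.05, limma adjusted p = 0.092), without vehicle replicate 2 (limma adjusted p = 0.061) and without any 1 of the 3 melatonin samples (limma adjusted p = 0.072, 0.12 and 0.054 for replicates 1, 2 and 3). Gm5577 on the opposite strand overlaps the gene and had 4.07 to 16 normalized counts, so at this depth a change of H1f10 is the least certain of those called.

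**Figure D3:**
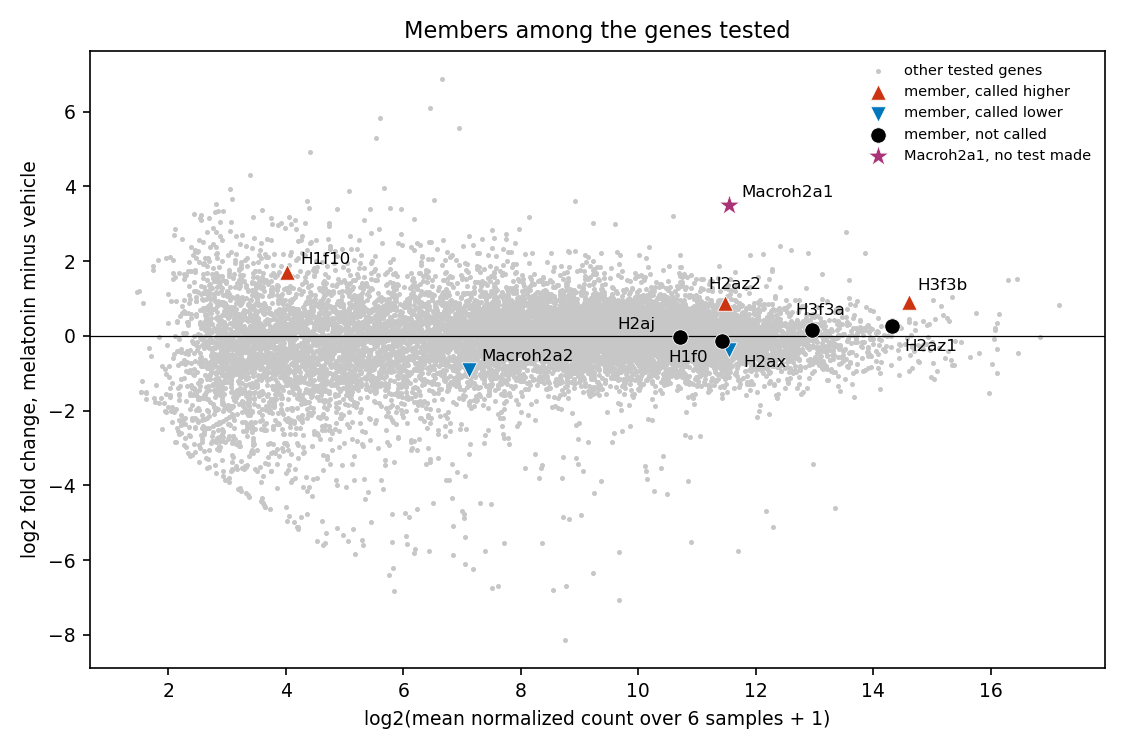
Log2 fold change (melatonin minus vehicle) of every tested gene against log2 of its mean normalized count plus 1, with other genes in grey and the histone variant genes marked by the outcome of the limma test. Macroh2a1 lies at 3.49, apart from the bulk of genes of its abundance, while the other 9 lie between -0.90 and 1.71 within the cloud.

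Compared per kilobase of exon, some members kept their place in both groups, and the places of others depended on the length used. H2az1 was the highest with 9130.0 ± 590.4 normalized counts per kb of merged exons in vehicle and 11119 ± 1619 in melatonin, and H3f3b the second with 5812 ± 294 and 10899.9 ± 1331. In vehicle these 2 did not overlap, whereas in melatonin their ranges did. H2ax was at 2447 ± 56.6 and 1885 ± 229. Next came H1f0, H3f3a and H2aj, at 1407 ± 80.1, 1219 ± 60.04 and 892 ± 24.6 in vehicle and 1275 ± 117, 1371 ± 198 and 874 ± 58.1 in melatonin, where H1f0 and H3f3a overlapped.

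H2az2 rose from 584 ± 10.1 to 1090 ± 243 normalized counts per kb, and in melatonin it overlapped with H3f3a and H1f0 through replicate 1. Macroh2a1 and Macroh2a2 were lower than these in vehicle, and H1f10 was last in both at 6.27 ± 4.44 and 18.9 ± 5.10. Scaled by the longest transcript instead, H2az2 was above H2aj in both groups (1123 and 924 in vehicle, 2094 and 906 in melatonin) and in melatonin also above H2ax (1885), H3f3a above H1f0 (1595 and 1407 in vehicle, 1795 and 1275 in melatonin) and Macroh2a1 above Macroh2a2 (120.5 and 65.1 in vehicle, 1361 and 35.1 in melatonin). Among all genes tested, the level of Macroh2a1 per kb of merged exons moved from the percentile 43.8 to the percentile 88.8. All 10 members together held 54031 ± 2272 normalized counts in vehicle and 79853 ± 7239 in melatonin, a ratio of 1.48, most of which came from H3f3b, Macroh2a1 and H2az1.

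**Figure D4:**
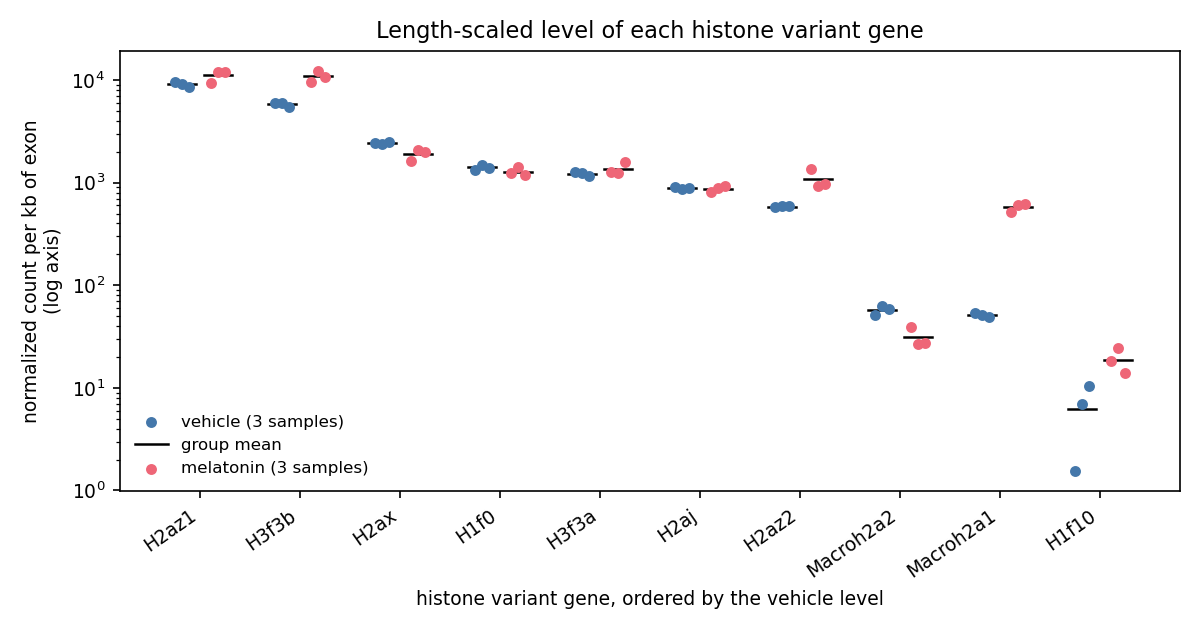
Normalized counts per kilobase of exon (log axis) of the 10 genes in each sample, ordered by the vehicle mean, with points for samples and lines for group means. H2az1 and H3f3b lead in both groups, and Macroh2a1 moves from 51.4 to 580 per kb while Macroh2a2 falls from 57.6 to 31.1.

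Genes whose pattern over the 6 samples was closest to that of Macroh2a1 were found by the root mean square difference of log2 values, each centred on its own vehicle mean, over 9989 genes that averaged 100 or more. The closest was Calca, which encodes calcitonin and the neuropeptide CGRP, with a difference of 0.286. It had 311, 293 and 286 normalized counts in vehicle and 3298, 2316 and 2792 in melatonin. Tspoap1, which encodes a scaffold protein, followed at 0.394 with means of 128 and 1074. Stxbp6, which encodes the syntaxin-binding protein amisyn, came next at 0.493 with means of 169.8 and 1384, then Cdh2 (N-cadherin) at 0.541 with 42.9 and 321, and Cyp4f13, a cytochrome P450 gene, at 0.565 with 55.7 and 372. The 5 genes were picked for this likeness, none is on chromosome 13, and nothing about shared control follows from it.

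Around Macroh2a1 on chromosome 13, 26 annotated genes start within 300 kb of its start, of which 4 are protein-coding and 2 were in the table. Tifab, which encodes an inhibitor of TRAF6 signalling and starts 35.8 kb upstream, had 98.9, 119.9 and 79.7 normalized counts in vehicle and 28.0, 22.9 and 31.2 in melatonin, a log2 fold change of -1.82 ± 0.25 (SE, limma adjusted p = 0.00054). The neighbour therefore fell where Macroh2a1 was higher. Cxcl14, a chemokine gene 154 kb upstream, had at most 7.04 normalized counts in any sample and was not tested.

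The genes that make, carry and read these histones were described by lists of names, whose counts stand beside 24.5% higher, 24.7% lower and a median of -0.0046 over all genes tested. Of the replication-dependent core and linker histone genes, 56 were in the table and 49 were tested: 4 rose, 10 fell and 35 did not pass, with a median log2 fold change of -0.33. The count that rose was 2 without vehicle replicate 1 or 3 or without melatonin replicate 2 or 3, and the count that fell was 6 after correction for transcript length and 4 among genes averaging 100 or more. H2bc4 rose from 51.7 ± 12.6 to 318 ± 29.5 normalized counts and H1f2 from 112 ± 12.8 to 449 ± 133 (SD, n = 3), with log2 fold changes of 2.62 and 1.96. H2ac24 fell from 8628 ± 557 to 4578 ± 1309, H4c4 from 224 ± 51.7 to 68.6 ± 24.2, H2ac8 from 393 ± 49.4 to 209.9 ± 50.6 and H2ac23 from 414 ± 54.6 to 236 ± 59.2. Most of these mRNAs end in a stem-loop in place of a poly(A) tail, and the cDNA kit named in the methods is known to prime on poly(A), so the values show the polyadenylated part and not the whole pool. Many of these genes are near copies of each other, and the counts of a single one are uncertain.

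Among the other histone variants, only Cenpa and H3f5, the latter annotated as a processed pseudogene and counted above among the copies of H3f3a, of the 12 listed were in the table and neither passed the test, although 1 fell without melatonin replicate 1 and 1 rose after correction for transcript length. Cenpa, the centromeric H3, had 3314 to 3590.4 normalized counts in vehicle and 2964 to 3429 in melatonin. Of 20 proliferation markers, 1 rose and 10 fell, with a median of -0.24, and 6 fell without vehicle replicate 1. Rrm2, a subunit of ribonucleotide reductase, rose from 25545 ± 1221 to 33585 ± 2807, while Pcna, the clamp of the replication fork, fell from 6465 ± 226 to 3721 ± 110.7 (log2 fold changes of 0.39 and -0.80), and Ube2c, Ccnb1 and Aurka, which act in mitosis, fell by 0.65, 0.46 and 0.45 on the log2 scale. In histone mRNA processing, 4 of 10 rose and 3 fell, where 2 rose without vehicle replicate 3 or after correction for transcript length. Slbp, which binds the stem-loop, rose from 8836 ± 647 to 16080.2 ± 1228 (log2 fold change 0.86, limma adjusted p = 0.00017), Lsm10, Eri1 and Npat rose by 0.54, 0.39 and 0.37, and Sympk, Cpsf2 and Lsm11 fell by 0.62, 0.52 and 0.32.

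For H3.3, 2 of 8 chaperone genes rose and 1 fell, with a median of -0.05. The count that fell was 0 without vehicle replicate 3 or without melatonin replicate 2 or 3. It was also 0 under scaling to the same total and in limma without trend. Ubn1, part of the HIRA complex, rose from 1334 ± 157 to 1824 ± 49.9, and Dek from 3136 ± 147 to 4194 ± 83.1 (log2 fold changes of 0.46 and 0.42), while Cabin1, another HIRA partner, fell by 0.30 on the log2 scale. For H2A.Z, 2 of 14 exchange factor genes rose and 6 fell, with a median of -0.31. Ruvbl2 and Ruvbl1, the ATPases shared by the SRCAP, p400 and INO80 complexes, fell from 3022 ± 38.4 to 1461 ± 9.55 and from 1696 ± 112 to 952 ± 92.3, with Ino80 and Ep400 also lower (-0.98 and -0.44), and Actr5 and Actr6 rose by 0.88 and 0.38. Across the alternatives the count of exchange factors that rose was between 0 and 4. It was 0 without vehicle replicate 2, without melatonin replicate 2 and under quantile normalization. The count that fell was between 3, without vehicle replicate 1, and 8.

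Of 16 general and replication-coupled histone chaperones, 1 rose and 8 fell, with a median of -0.26. Npm1, the nucleolar chaperone nucleophosmin, fell from 6452 ± 336 to 2555 ± 473 (log2 fold change -1.35, limma adjusted p = 0.00011), Ipo4, the importin of newly made H3 and H4, from 1509 ± 65.7 to 805 ± 31.8, and Nap1l1 and Supt6 by 0.65 and 0.56 on the log2 scale, whereas Asf1b rose from 7744 ± 95.6 to 9705 ± 837, a call lost after correction for transcript length, where 0 of the list rose. In H2A.X signalling, 7 of 15 rose and 2 fell, with a median of 0.10. The count that rose was 4 without vehicle replicate 2 or melatonin replicate 2 and 3 after correction for transcript length. Chek2, a checkpoint kinase, rose by 1.13, Ppm1d, a phosphatase that acts on phosphorylated H2A.X, by 0.69, and Nbn and Rnf168 by 0.41 each, while Atm and Baz1b, kinases that phosphorylate H2A.X, fell by 0.88 and 0.45 on the log2 scale.

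Of 21 genes for ADP-ribosylation and macrodomain proteins, listed because macrodomains bind ADP-ribose, 9 rose and 3 fell, with a median of 0.22, and 1 fell without vehicle replicate 2 or 3 or without melatonin replicate 1 or 2. Tnks2, encoding tankyrase 2, rose from 1322 ± 425 to 3598 ± 945, Macrod2, an eraser of ADP-ribose, from 229 ± 24.9 to 502 ± 66.0, Parp12 from 262 ± 77.6 to 574 ± 239 and Parp3 from 264 ± 13.6 to 495 ± 83.2. Parp1, the main polymerase of ADP-ribose, fell from 4235 ± 319 to 2983 ± 259 (log2 fold change -0.51, limma adjusted p = 0.0023), and Parp14 fell by 0.46 on the log2 scale. Of 5 splicing factors reported to act on the alternative Macroh2a1 exons, 1 fell and none rose in the limma test: Ddx17 went from 707 ± 94.8 to 379 ± 69.7 (-0.91, limma adjusted p = 0.002). In this list 1 rose without melatonin replicate 2, under scaling to the same total and under quantile normalization, and 2 fell after correction for transcript length or GC content. Like the other lists, the groups of this paragraph were chosen with earlier results of these samples known, and no list was tested as a set.

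**Figure D5:**
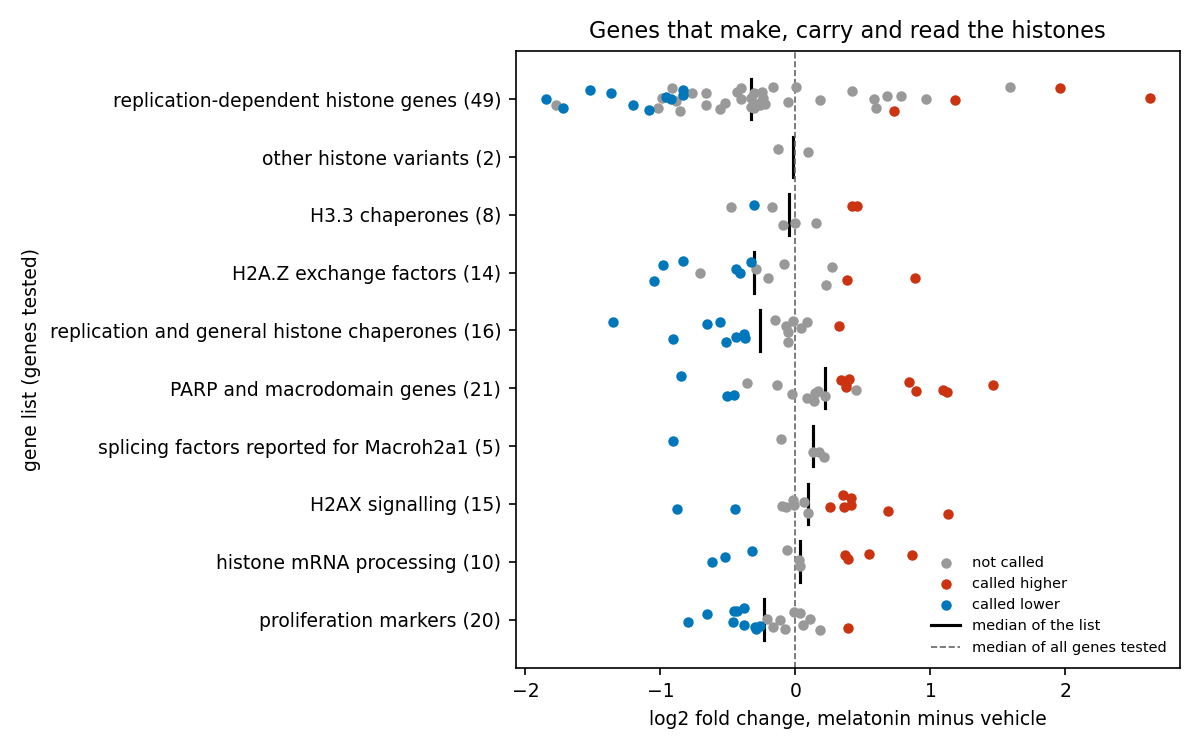
Log2 fold change (melatonin minus vehicle) of each tested gene in the 10 lists, with the number tested in brackets, colours for the outcome of the limma test, black lines for list medians and a dashed line for the median of all genes tested. The medians lie between -0.33, for replication-dependent histone genes, and 0.22, for ADP-ribosylation and macrodomain genes.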

How the data were processed

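RNA sequencing was done on 6 samples, 3 per group by their treatment labels. Per the study's methods, cDNA was made with a SMARTer Ultra Low Input kit, a type known to prime on poly(A), and the authors trimmed reads (Phred 35, at least 25 bp) in Partek Flow 12.9.0, aligned them with STAR 2.7.8a to mm39 and assigned reads to the genes of Gencode M33 with Partek's expectation-maximization quantifier. The methods also state that genes below 10 counts in each sample were removed and the rest scaled by median ratios. The deposited values are thus a signal, estimated counts over a size factor, called normalized counts here. They still include genes below 10 in every sample, such as Cxcl14 with at most 7.04 normalized counts. At a tolerance of 0.01, 63.4% to 66.0% of the values in a sample are whole multiples of the value of 1 read, so whole reads were not recovered and a count model was not used.

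The table held 16381 genes, of which 16334 had a name in Gencode M39, the source of GRCm39 positions, exon lengths and proteins. The 14419 genes that reached 10 in 1 sample or more were fitted in limma 3.58.1 (R 4.3.3, eBayes with trend) on log2(value + 1) with treatment as the only term, with Benjamini-Hochberg adjustment of the p-values over all of them at a threshold of 0.05. The study's own test needs raw counts and could not be used. Sums and shares were compared by exact permutation tests, which cannot give a p below 0.1 here. Levels between genes were compared per kb of merged exons. On simulated data with 200 of 13979 genes changed and a spread of 4.51% in vehicle and 9.67% in melatonin, the fit recovered 200 of 200 changed genes. It called 2 of 13779 unchanged ones. A larger spread, such as that of H1f10 (70.9% in vehicle and 27.0% in melatonin), was not tested. Neither was a share of changed genes near the 49.2% called in the real data. The calls of the members were not tested in this way. Shared sequence was found with blastn 2.17.0 (95% identity, 75 bases). Python packages were numpy 2.4.6, pandas 2.3.3, scipy 1.17.1, biopython 1.88 and, for plots, matplotlib 3.10.9.

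One marker gene is not reported here. The members, the gene lists and the tests were chosen with earlier results of these data known. Named genes were the members, up to 4 called genes per list and direction with the largest change and a mean of at least 100, genes of the table starting within 300 kb of Macroh2a1 and the 5 genes closest to it in pattern. Alternatives covered the pseudocount, filters on low values, scaling, limma without trend or with weights, voom, the replicate block, corrections for transcript length and GC content, and leaving out each sample. After seeing the data, sums of a gene with its copies, the comparison with melatonin replicate 1 alone, a single sample assumed to vary like the vehicle samples, and the macroH2A share per longest transcript were added.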

Additional observations from a re-analysis of the deposited data

How the results depend on the processing

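The log2 fold change of Macroh2a1 was 3.42 to 3.57 under the 20 alternatives other than that with melatonin replicate 1 as the only treated sample, where it was 3.34. H3f3b and H2az2 were called under all 20 alternatives with more than 1 treated sample. Of the members that fell, 1 was counted instead of 2 after correction for transcript length, where H2ax was lost. It was also 1 with melatonin replicate 1 alone, assumed to vary like the vehicle samples, a comparison that says little about stability. With that sample alone, the summed H3.3 level differed by 0.57 and the summed H2A.Z level by 0.19 on the log2 scale, and the H2az1 share by -6.85 percentage points. The summed H3.3 level differed by 0.86 under quantile normalization and the summed H2A.Z level by 0.60 after correction for transcript length. The cause was not tested. The fold change of H2aj turned to 0.007 when samples were scaled to the same total, 0.108 after correction for transcript length and 0.097 for GC content, and ranged from -0.0725 to 0.0223 when any 1 sample was left out. H2az1 was called under 5 of 21 alternatives, among them that without melatonin replicate 1. The median of all genes moved by less than 0.1 under every scaling tried.

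Samples with the same replicate number did not deviate together (correlations of -0.106, 0.136 and -0.194 over 9990 genes), so the numbers were not used to pair them. With the replicate block, H1f10 lost its call (1.71, limma adjusted p = 0.051), and the other members kept theirs.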
